A study of Mus musculus with 24 samples.

Results

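The replication-dependent histone genes described here are the 28 amplicons, of 23930 in the expression table, whose gene name began with Hist1h, Hist2h, Hist3h, or Hist4h. These 28 genes were 6 for the linker histone H1, 7 for H2A, 6 for H2B, 3 for H3, and 6 for H4. The table holds 24 libraries, 4 from each of 6 groups, in which Ly6Chi and Ly6Clow splenic monocytes were compared between wild-type (WT), Slc29a3-/-, and Slc29a3-/- Tlr7-/- mice. SLC29A3 carries nucleosides out of lysosomes, and TLR7 is an endosomal sensor of RNA and nucleosides. The genotypes ask whether gene expression differs when the transporter is lost and whether a difference is also seen when TLR7 is lost as well.

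All mice were C57BL/6. WT animals were purchased, and both mutant lines were made with CRISPR/Cas9, the Slc29a3 allele carrying an inserted stop codon and the Tlr7 allele a small deletion. The double mutants carry the same Slc29a3 mutation as the Slc29a3-/- mice. Ages are not given for these libraries, and the cells had received no treatment. After bead depletion of T, B, NK, neutrophil, and erythroid cells, CD11b+ Ly6G- NK1.1- Siglec-F- spleen cells were sorted by their levels of Ly6C and Fcgr4, with Ly6Clow cells taken as Fcgr4+, and RNA was taken directly after the sort. The sample labels call the cells macrophages, and the study calls them monocytes. Nothing states that the libraries of a group came from separate mice, so the P values below measure the spread between these libraries, which may be technical.

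Replication-dependent histones wrap newly copied DNA, and their transcripts accumulate during S phase and are removed when DNA synthesis ends. Pairs of H2A, H2B, H3, and H4 form the nucleosome core, and H1 binds the linker DNA between cores. Their mRNAs usually end in a conserved stem-loop in place of a poly(A) tail, which is bound by the protein SLBP, and their genes lie in clusters that are transcribed together under the coactivator NPAT.

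Of the 28 genes, 23 lie on chromosome 13, 3 on chromosome 3, 1 on chromosome 6, and 1 on chromosome 11 in the GRCm38.p6 annotation of RefSeq, which matched all 28. Hist1h2al and Hist3h2bb-ps are annotated there as transcribed pseudogenes, and the others code for protein. The annotation holds 70 genes with such a name, and the rest, Hist1h2bc, Hist3h2a, and Hist3h2ba among them, were not analysed here.

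The promoters are shown because many histone genes share short sequence elements there. A window of 300 bases, 250 before the annotated start and 50 after it, was found for 22 of the 28 genes. The windows below belong to the gene of each class with the highest mean level among those with a window. They are written 5′ to 3′ along the strand of the gene, and capitals mark 4 motifs searched on both strands, the TATA box letters TATAAA, the CCAAT box, the octamer ATTTGCAT known to bind OCT1, and the box AAACACA known from H1 promoters. The windows come from RefSeq on GRCm38.p6, at chr13:23622509-23622808, minus strand, for Hist1h1e, chr13:21753863-21754162, minus strand, for Hist1h2ak, chr13:23746484-23746783, plus strand, for Hist1h2bb, chr13:23575513-23575812, plus strand, for Hist1h3d, and chr13:22041313-22041612, minus strand, for Hist1h4i.
Hist1h1e: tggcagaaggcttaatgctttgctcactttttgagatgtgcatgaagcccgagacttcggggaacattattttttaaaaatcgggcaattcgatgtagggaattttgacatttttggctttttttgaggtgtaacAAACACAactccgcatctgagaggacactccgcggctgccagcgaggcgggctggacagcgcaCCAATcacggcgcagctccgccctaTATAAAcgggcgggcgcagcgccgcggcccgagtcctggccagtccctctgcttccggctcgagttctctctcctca
Hist1h2ak: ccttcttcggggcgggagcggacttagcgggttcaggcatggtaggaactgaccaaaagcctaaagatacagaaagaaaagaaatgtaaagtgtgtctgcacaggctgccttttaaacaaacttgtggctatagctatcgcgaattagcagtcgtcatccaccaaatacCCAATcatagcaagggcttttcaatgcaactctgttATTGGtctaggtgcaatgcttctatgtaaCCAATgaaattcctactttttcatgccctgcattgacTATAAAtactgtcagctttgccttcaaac
Hist1h2bb: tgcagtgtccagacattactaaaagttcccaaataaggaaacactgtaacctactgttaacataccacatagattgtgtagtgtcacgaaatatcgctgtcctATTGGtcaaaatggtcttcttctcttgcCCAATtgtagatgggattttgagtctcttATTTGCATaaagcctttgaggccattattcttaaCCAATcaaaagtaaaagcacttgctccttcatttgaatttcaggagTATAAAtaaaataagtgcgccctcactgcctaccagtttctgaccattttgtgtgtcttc
Hist1h3d: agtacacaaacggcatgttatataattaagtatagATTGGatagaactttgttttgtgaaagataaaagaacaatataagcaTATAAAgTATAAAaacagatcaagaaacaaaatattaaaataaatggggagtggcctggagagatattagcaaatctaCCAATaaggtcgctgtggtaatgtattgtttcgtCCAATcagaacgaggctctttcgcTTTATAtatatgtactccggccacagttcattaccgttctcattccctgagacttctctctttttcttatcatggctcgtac
Hist1h4i: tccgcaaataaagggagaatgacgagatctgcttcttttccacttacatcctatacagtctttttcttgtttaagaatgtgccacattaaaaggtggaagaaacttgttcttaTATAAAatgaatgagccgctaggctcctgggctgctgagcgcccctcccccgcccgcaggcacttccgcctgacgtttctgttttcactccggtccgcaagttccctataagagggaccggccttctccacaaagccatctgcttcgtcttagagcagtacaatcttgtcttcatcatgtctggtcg

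For the share over all 27025 genes with a window, a gene counted when any of its windows held the motif, whereas each histone gene had 1 window. TATAAA was present in 16 of the 22 histone windows (72.73%) and in 15.67% of all genes. CCAAT was present in 18 of 22 (81.82%) and in 41.06% of all genes. The octamer ATTTGCAT was present in 7 of 22 (31.82%) and in 1.97% of all genes, and the 7 were 4 of 6 H2A and 3 of 4 H2B windows. AAACACA was present in 9 of 22 (40.91%), among them 5 of the 6 H1 windows, and in 8.22% of all genes. The place of TATAAA, counted from the annotated start, varied among the 5 windows shown. Whether that start is the one used in these cells was not tested. In Hist1h1e it began 27 bases before the annotated start, in Hist1h2bb 10 before, and in Hist1h4i 137 before. In Hist1h3d it began 168 and 161 bases before the start, with a reverse copy at 32 bases before. In Hist1h2ak it began at base 22 after the start. The windows of Hist1h2aa and Hist1h2ba, which are neighbours transcribed in opposite directions, partly cover the same bases. A match describes these letters only and does not show that a factor binds there.

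The 3′ stem-loop that marks this class of mRNA was found in the GENCODE vM21 transcript of 18 of the 28 genes. The lines below give it for 1 gene of each class, with the 16 bases of the stem-loop in capitals and 5 bases on either side, to show the forms carried by genes of the 5 classes.
Hist1h1e: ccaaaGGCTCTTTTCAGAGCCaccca
Hist1h2ab: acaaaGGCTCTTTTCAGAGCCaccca
Hist1h2bb: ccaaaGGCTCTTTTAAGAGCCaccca
Hist1h3d: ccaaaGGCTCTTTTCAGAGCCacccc
Hist2h4: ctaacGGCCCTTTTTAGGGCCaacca

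Across the 18 genes there were 5 forms of the 16 bases. The form of Hist1h1e was shared by 10 genes of the H1, H2A, H2B, and H3 classes, and the form of Hist1h2bb by 3 genes. The 5 H4 genes with a stem-loop carried the other 3 forms. In 5 of the 18 transcript models the stem-loop lay within 50 bases of the end, as in Hist1h2ab with 11 bases after it, whereas 13 models ran on for longer, as in Hist1h1e with 1153 bases.

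Because histone genes of a class are close copies, reads of 1 amplicon may come from several genes. Of the 28 genes, 22 shared at least 1 run of 100 bases with a transcript of another gene, on 0.8% to 52.4% of such runs. The highest share was that of Hist1h2ab, with 17 other genes. Hist1h1a, Hist1h1b, Hist1h1t, Hist1h2aa, Hist2h2be, and Hist2h4 shared none. The position of each amplicon within its gene was not used here, so levels of the 22 genes are uncertain as levels of that gene alone. Only exact runs were counted, so near copies that differ by a base were missed. The other 6 genes are therefore not shown to be free of shared reads. The order of levels between genes was used to choose which genes are shown and is uncertain in the same way.

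By the step between low values, the libraries held 12311037 to 14572266 reads, and a count of 3 reads, the limit that 0 reads allows, stood for 0.206 to 0.244 reads per 1000000 reads (RPM), which covers counting error only. WT replicates 1 to 3 of both subsets were sequenced more deeply than every other library, and WT replicate 4 stood apart from them. WT replicates 1 to 3 carried barcodes 11 to 16. WT replicate 4 carried barcodes 29 and 35, which lie among those of the mutant libraries, 24 to 46. The labels do not say whether these sets of libraries were handled apart, and the part of this in differences from WT was not tested. By Euclidean distance over log2(RPM + 1) of the 11042 genes tested in all libraries, Ly6Chi WT replicates 1 to 3 were 24.3 to 25.6 apart and 65.6 to 66.6 from replicate 4. In Ly6Clow WT these distances were 28.9 to 46.1 and 69.2 to 80.4, and libraries of a mutant group were 33.1 to 105 apart. Values with WT replicate 4 as the sole WT library are therefore given beside results that they change. Slc29a3 read 163 to 225 RPM in Ly6Chi WT, 127 to 173 RPM in Ly6Chi Slc29a3-/-, and 194 to 413 RPM in Ly6Chi Slc29a3-/- Tlr7-/- libraries. Tlr7 read 210 to 336 RPM in Ly6Chi WT and 259 to 345 RPM in Ly6Chi Slc29a3-/- Tlr7-/- libraries. Neither amplicon is known to lie across the edited site, so these levels do not check the labels. The 5 Ly6Chi monocyte markers measured, of 7, summed to 3120 to 8969 RPM in the Ly6Chi libraries and to at most 291 RPM in the Ly6Clow libraries, and the 8 Ly6Clow markers to 1378 to 4141 RPM and 9149 to 18672 RPM.

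In Ly6Chi monocytes, histone transcripts were more abundant in Slc29a3-/- mice than in either other genotype. The 28 amplicons together read 13911 ± 3190 RPM (SD, n = 4) in Slc29a3-/-, 4229 ± 326 RPM in WT, and 3526 ± 994 RPM in Slc29a3-/- Tlr7-/- libraries. The lowest Slc29a3-/- library, at 10992 RPM, lay above the highest library of the other genotypes, at 4646 RPM. The mean sum was 3.29-fold that of WT and 3.94-fold that of Slc29a3-/- Tlr7-/-. In bulk RNA, more cells that make histones and more histone RNA per cell cannot be told apart. In the Slc29a3-/- libraries 1.10% to 1.76% of all reads fell on these amplicons. Every class rose in the mean of its sum over WT, by 2.85-fold for H1, 3.51-fold for H2A, 3.96-fold for H2B, 2.27-fold for H3, and 4.45-fold for H4.

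**Figure D1:**
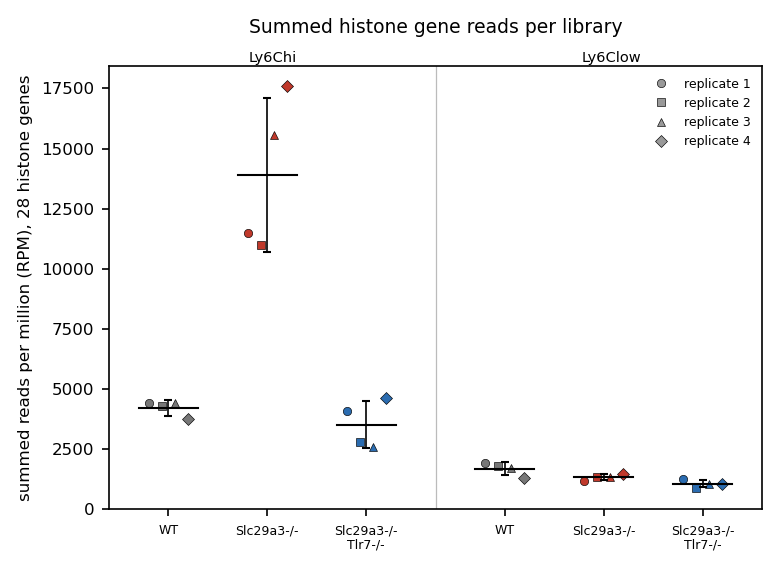
Summed RPM of the 28 histone amplicons in each library, by subset and genotype, where each point is a library and the bars give mean ± SD of 4 libraries. The 4 Ly6Chi Slc29a3-/- libraries lie between 10992 and 17586 RPM, above the Ly6Chi WT and Slc29a3-/- Tlr7-/- libraries and all Ly6Clow libraries.

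A gene was called when it passed an adjusted P of 0.05 in limma and a fold change of 1.5. Of the 28 genes, 20 passed the filter on low values in Ly6Chi monocytes, and 15 of these 20 were called higher in Slc29a3-/- than in WT, whereas 8.15% of all 10561 genes tested were called higher. None was called lower, against 14.3% of all genes, and no histone gene was lower at an unadjusted P under 0.05. With the 1.5-fold limit, 1826 of all 10561 genes were lower at that P. The 20 genes had a median log2 fold change of 1.44, and all genes tested had one of -0.14. In 16 of the 20 the 4 libraries of each genotype did not overlap, as in 33.7% of all genes. The share called was 4 of 5 for H1, 4 of 4 for H2A, 2 of 4 for H2B, 2 of 2 for H3, and 3 of 5 for H4.

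With WT replicate 4 as the sole WT library, its spread taken as that of the other groups, 9 of the 20 genes were called higher, against 1.26% of all genes in that fit. Of the 15 genes, 8 were among these 9, the other being Hist1h1c, and all 15 kept a higher value in Slc29a3-/-. The 7 that lost the call were Hist1h1a, Hist1h1d, Hist1h2ak, Hist1h2bb, Hist1h3a, Hist1h4i, and Hist4h4, with log2 fold changes of 0.87 to 2.06 and adjusted P values of 0.0754 to 0.318.

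Against Slc29a3-/- Tlr7-/- monocytes, 18 of the 20 tested genes were called higher in Slc29a3-/- and none lower, with 9.0% and 8.22% of all genes called in those directions. No histone gene was lower at an unadjusted P under 0.05, against 1254 of all 10561 genes with the 1.5-fold limit as well. The median log2 fold change of the 20 genes was 1.82, and that of all genes was -0.12. The 4 libraries of each genotype did not overlap in 18 of the 20, as in 21.3% of all genes. Both comparisons use the same 4 Slc29a3-/- libraries, so they are not independent of each other.

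**Figure D2:**
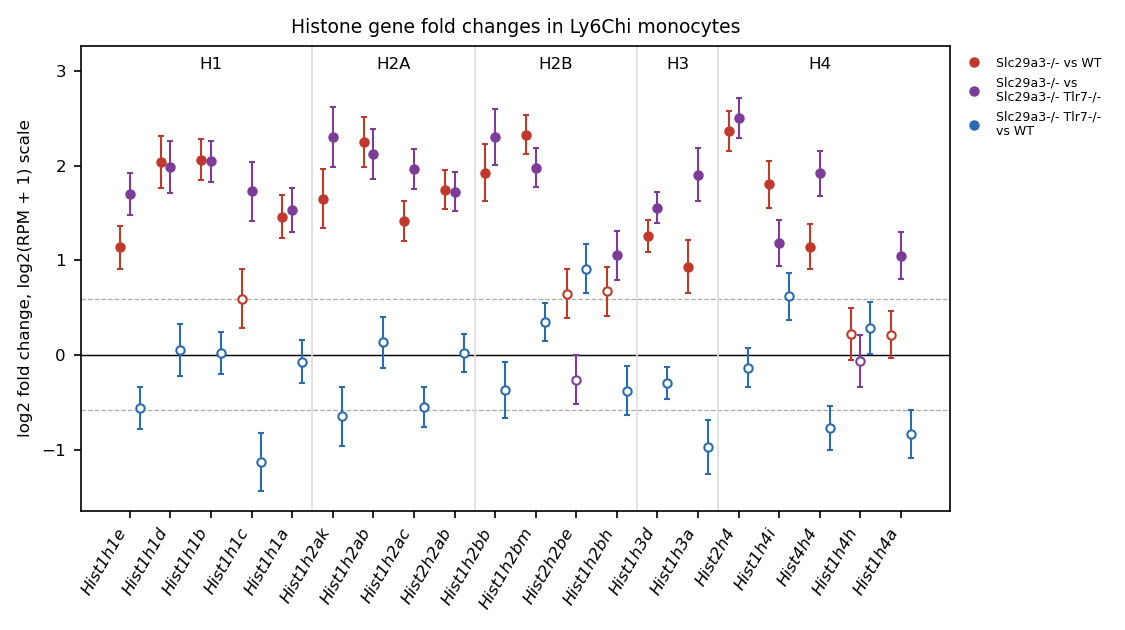
Log2 fold changes, on the log2(RPM + 1) scale, of the histone genes tested in Ly6Chi monocytes for Slc29a3-/- against WT (red), Slc29a3-/- against Slc29a3-/- Tlr7-/- (purple), and Slc29a3-/- Tlr7-/- against WT (blue), with bars of 1 SE, filled points for called genes, open points for others, and dashed lines at a 1.5-fold change. Of 20 genes, 15 are called in the first comparison, 18 in the second, and 0 in the third.

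The H1 genes encode linker histones, which close the DNA as it leaves the nucleosome and compact chromatin. Hist1h1e read 966, 1009, 1025, and 529 RPM in the 4 Ly6Chi WT libraries, 1456, 1799.7, 2035, and 2322 RPM in Slc29a3-/- cells, and 723, 559, 431, and 637 RPM in Slc29a3-/- Tlr7-/-. All Slc29a3-/- libraries were above all others, and WT replicate 4 lay within the range of the double mutants. The log2 fold change over WT was 1.14 ± 0.23 (SE, as for every log2 fold change below), with an adjusted P of 0.00253, and 1.83 with WT replicate 4 as the sole WT library. Hist1h1d read 445, 429, 418, and 600.4 RPM in WT, 1356, 1495, 2394, and 2817 RPM in Slc29a3-/- cells, and 546, 427, 308, and 771 RPM in Slc29a3-/- Tlr7-/-. The Slc29a3-/- libraries did not overlap the others, which overlapped each other, and the log2 fold change was 2.04 ± 0.27, adjusted P = 0.000245, over WT. Hist1h1b, which shares no run of 100 bases with another gene, read 368, 352, 337, and 347 RPM in WT, 1133, 1085, 1988, and 1903 RPM in Slc29a3-/- cells, and 410.4, 339, 249, and 461 RPM in Slc29a3-/- Tlr7-/-. Double mutant libraries lay on both sides of the WT libraries, and Slc29a3-/- was higher by 2.06 ± 0.22, adjusted P = 8.4e-05, on the log2 scale over WT and by 2.04 ± 0.22, adjusted P = 9.6e-05, over the double mutant.

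Hist1h1a showed the same order, with 303 to 598 RPM in Slc29a3-/- against 149 to 169.6 RPM in WT, a log2 fold change of 1.46 ± 0.23, adjusted P = 0.000685. The exception in this class was Hist1h1c, a linker histone gene known to make polyadenylated transcripts in cells that do not divide. It read 497, 459, 474, and 164 RPM in WT, 492, 466, 639, and 631 RPM in Slc29a3-/- cells, and 241, 117, 144, and 187 RPM in Slc29a3-/- Tlr7-/-. WT replicates 1 to 3 overlapped the Slc29a3-/- libraries and WT replicate 4 lay with the double mutants. Its log2 fold change over WT was 0.59 ± 0.31, adjusted P = 0.17, and was not called, whereas that over Slc29a3-/- Tlr7-/- was 1.73 ± 0.31, adjusted P = 0.00153. With WT replicate 4 alone as the WT library the log2 fold change over WT was 1.75 and was called. Hist1h1t, the testis linker histone, stayed at or below 1.443 RPM in all 24 libraries and was not tested.

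H2A proteins pair with H2B on the outer faces of the nucleosome core. Hist1h2ak read 239.9, 225, 254, and 164 RPM in WT, 655, 545, 624, and 999 RPM in Slc29a3-/- cells, and 225, 63.9, 129, and 198 RPM in Slc29a3-/- Tlr7-/-. The Slc29a3-/- libraries were above all others, and the second double mutant library was the lowest. The log2 fold change was 1.65 ± 0.31, adjusted P = 0.00197, over WT and 2.30 ± 0.31, adjusted P = 0.000246, over Slc29a3-/- Tlr7-/-. Hist1h2ab read 149.97, 136, 145, and 134 RPM in WT, 570.1, 512, 968, and 734 RPM in Slc29a3-/- cells, and 141, 132, 102, and 297 RPM in Slc29a3-/- Tlr7-/-. Its WT libraries were close together, and the lowest Slc29a3-/- library was above the highest double mutant library. At 2.25 ± 0.27, adjusted P = 0.000133, it had the third largest log2 fold change over WT. It also had the largest share of its runs of 100 bases in common with other genes. Hist1h2ac (1.41 ± 0.21, adjusted P = 5e-04) and the chromosome 3 gene Hist2h2ab (1.74 ± 0.20, adjusted P = 0.000133) were called as well. Hist2h2ab read 23.2 to 34.7 RPM in Slc29a3-/- and 6.16 to 10.8 RPM in WT. The remaining H2A genes, Hist1h2ae, the testis gene Hist1h2aa, and the pseudogene Hist1h2al, did not exceed 2.0 RPM in any library and were not tested in this subset.

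Among the H2B genes, Hist1h2bb read 659, 622, 659, and 608 RPM in WT, 2379.7, 1724, 2538, and 3295 RPM in Slc29a3-/- cells, and 723, 233, 457, and 752 RPM in Slc29a3-/- Tlr7-/-. The WT libraries differed little, the double mutant libraries fell on both sides of them, and the Slc29a3-/- libraries were above both groups. Its log2 fold change was 1.93 ± 0.30, adjusted P = 0.000628, over WT and 2.30 ± 0.30, adjusted P = 0.000164, over the double mutant. Hist1h2bm read 53.1, 61.5, 60.1, and 69.1 RPM in WT, 238, 298, 325, and 393 RPM in Slc29a3-/- cells, and 93.5, 50.1, 76.2, and 101 RPM in Slc29a3-/- Tlr7-/-, again with no overlap of Slc29a3-/- with the others. Its log2 fold change over WT, 2.33 ± 0.20, adjusted P = 2.62e-05, was the second largest of the 20.

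Hist2h2be is the H2B gene best known for polyadenylated transcripts in resting and differentiated cells. It read 8.74, 8.12, 7.14, and 19.5 RPM in WT, 17.04, 19.1, 16.3, and 13.2 RPM in Slc29a3-/- cells, and 24.5, 20.96, 18.1, and 16.3 RPM in Slc29a3-/- Tlr7-/-. WT replicate 4 was high and lay within the range of the mutants, and the mutants overlapped each other. Its log2 fold change was 0.65 ± 0.26, adjusted P = 0.0772, over WT and -0.26 ± 0.26, adjusted P = 0.505, over Slc29a3-/- Tlr7-/-, and neither was called. WT replicates 1 to 3 lay below all Slc29a3-/- libraries, and without WT replicate 4 the gene was called higher over WT, at 0.94 ± 0.20, adjusted P = 0.00291. With WT replicate 4 as the sole WT library the log2 fold change turned to -0.25. Hist1h2bh, at 2.21 to 4.37 RPM in Slc29a3-/- and 1.17 to 1.61 RPM in WT, did not overlap but was not called over WT (0.67 ± 0.26, adjusted P = 0.0653). Over the double mutant it was called, at 1.05 ± 0.26, adjusted P = 0.0107. The pseudogene Hist3h2bb-ps and the testis gene Hist1h2ba did not exceed 1.509 RPM.

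H3 and H4 form the inner tetramer of the nucleosome, the part first placed on new DNA. Hist1h3d read 156, 162, 148, and 113 RPM in WT, 331, 291, 393, and 368 RPM in Slc29a3-/- cells, and 117, 109.8, 92.6, and 154 RPM in Slc29a3-/- Tlr7-/-. The Slc29a3-/- libraries stood above both other groups, which overlapped. The rise over WT was 1.26 ± 0.17, adjusted P = 0.000223, on the log2 scale. Hist1h3a read 57.5, 64.5, 62.7, and 31.1 RPM in WT, 93.9, 68.7, 99.1, and 156 RPM in Slc29a3-/- cells, and 28.7, 16.2, 29.1, and 33.4 RPM in Slc29a3-/- Tlr7-/-. The gap between WT and Slc29a3-/- was narrow, and all but 1 of the WT libraries lay above the double mutants. Hist1h3a had the smallest called log2 fold change over WT, 0.93 ± 0.28, adjusted P = 0.0238, and lost the call without WT replicate 4, with that replicate alone, or without Slc29a3-/- replicate 3 or 4. Over the double mutant it was 1.91 ± 0.28, adjusted P = 0.000421. Hist1h3f did not exceed 0.719 RPM and was not tested.

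The largest change of all was in H4. Hist2h4, on chromosome 3 at chr3:96262934-96263317, shares no run of 100 bases with another gene. It read 344, 309, 352, and 469 RPM in WT, 1652, 1704, 2014, and 2196 RPM in Slc29a3-/- cells, and 415, 296, 217, and 449 RPM in Slc29a3-/- Tlr7-/-. Each Slc29a3-/- library was over 3 times the highest library of the other genotypes. The log2 fold change was 2.37 ± 0.21, adjusted P = 2.62e-05, over WT and 2.50 ± 0.21, adjusted P = 6.24e-05, over Slc29a3-/- Tlr7-/-, the largest of the 20 in both comparisons. Hist1h4i read 51.9, 56.1, 58.2, and 88.8 RPM in WT, 179.7, 179, 260.2, and 277 RPM in Slc29a3-/- cells, and 75.2, 103, 69.9, and 157 RPM in Slc29a3-/- Tlr7-/-. Here replicate 4 of WT and of the double mutant were the highest of their groups but still below all Slc29a3-/- libraries, with a log2 fold change of 1.80 ± 0.25, adjusted P = 0.000301, over WT. Hist4h4, on chromosome 6, read 72.7, 80.1, 77.1, and 98.8 RPM in WT, 162, 153, 172, and 254 RPM in Slc29a3-/- cells, and 57.9, 26.2, 58.5, and 56.1 RPM in Slc29a3-/- Tlr7-/-. Its 3 groups did not overlap, and the log2 fold change was 1.14 ± 0.24, adjusted P = 0.00319, over WT and 1.92 ± 0.24, adjusted P = 0.000142, over the double mutant.

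Hist1h4h and Hist1h4a had the smallest log2 fold changes over WT, 0.22 ± 0.27 (adjusted P = 0.582) and 0.21 ± 0.25 (adjusted P = 0.557). Both are near the floor, at up to 4.6 and 3.75 RPM in any library, where the added 1 RPM of the log scale makes a fold change look smaller. Their means in RPM, without the added 1, were also close. They were 1.92 in WT and 2.48 in Slc29a3-/- for Hist1h4h, and 2.44 and 2.94 for Hist1h4a. Hist1h4j did not exceed 0.637 RPM. Over Slc29a3-/- Tlr7-/-, Hist1h4a was called at 1.05 ± 0.25, adjusted P = 0.00961, and Hist1h4h was not, at -0.07 ± 0.27, adjusted P = 0.892.

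**Figure D3:**
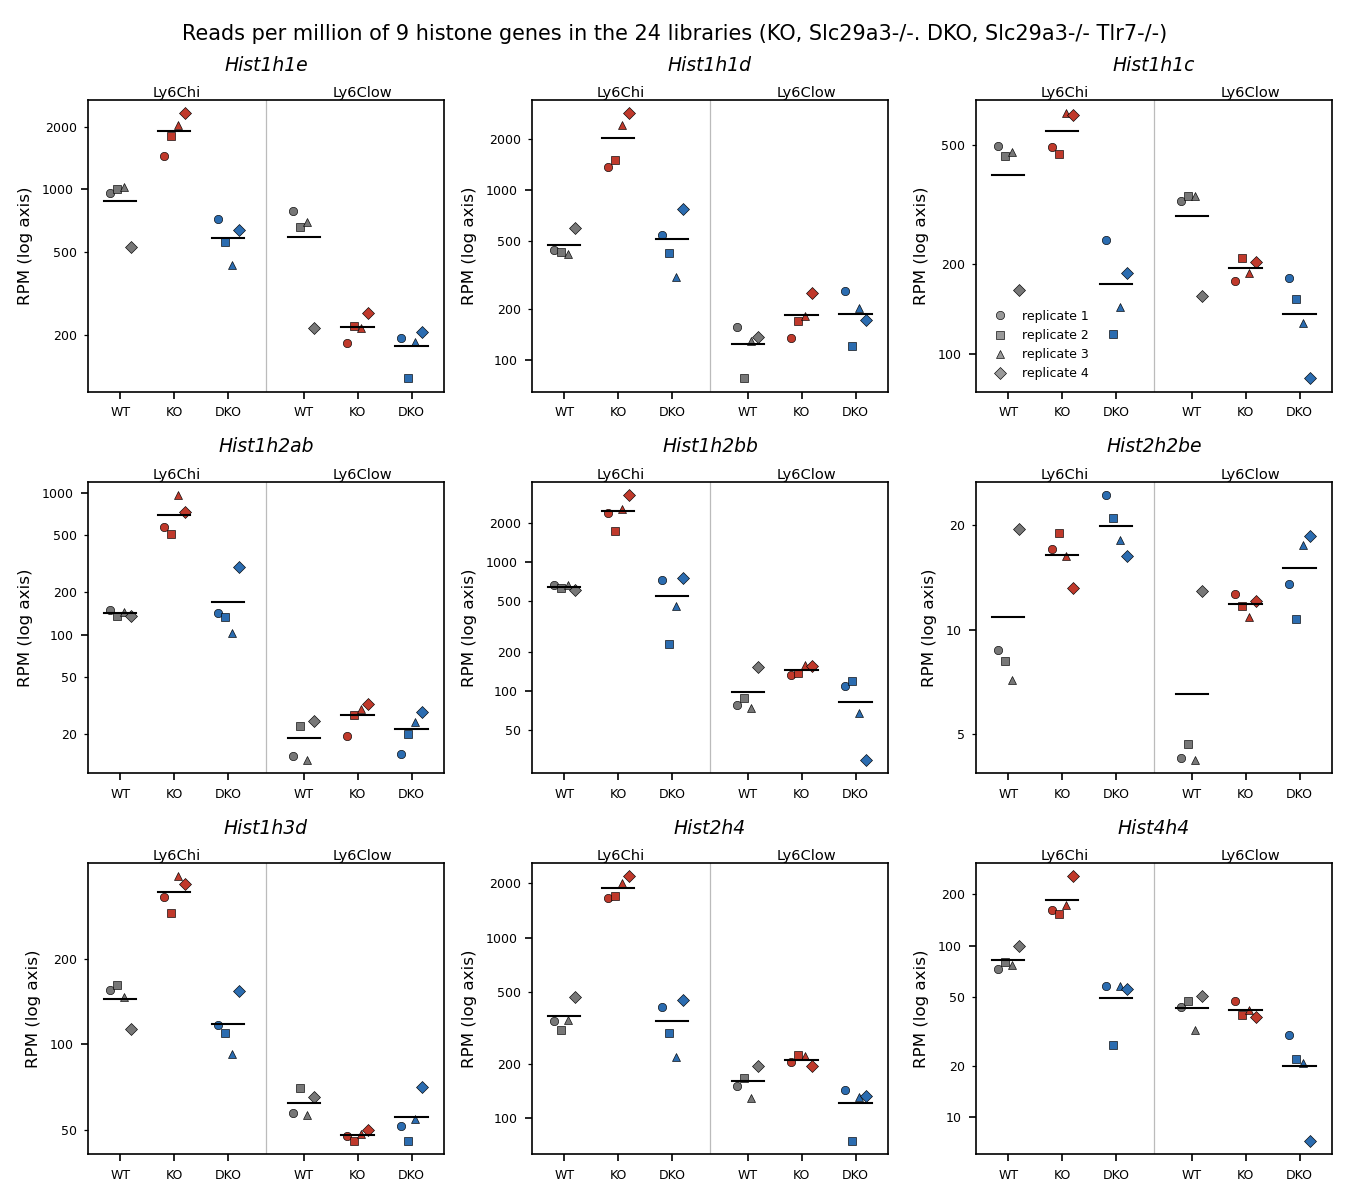
Levels in RPM on a log axis of 9 histone genes in each of the 24 libraries, 1 panel a gene, where each point is a library, its shape gives the replicate, and horizontal lines are group means of 4 libraries (KO, Slc29a3-/-, and DKO, Slc29a3-/- Tlr7-/-). Points of Ly6Chi Slc29a3-/- lie above those of Ly6Chi WT in 7 panels and overlap them for Hist1h1c and Hist2h2be.

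Between Slc29a3-/- Tlr7-/- and WT Ly6Chi monocytes, limma called none of the 20 genes higher and none lower, and called 0.312% and 1.11% of all genes. At an unadjusted P under 0.05 with the same fold, 2 were higher and 4 were lower, against 3.12% and 9.44% of all genes. The 2 were Hist2h2be (0.91 ± 0.26, adjusted P = 0.0748) and Hist1h4i (0.62 ± 0.25, adjusted P = 0.157). The 4 were Hist1h1c (-1.13 ± 0.31), Hist1h3a (-0.97 ± 0.28), Hist1h4a (-0.83 ± 0.25), and Hist4h4 (-0.77 ± 0.24), with adjusted P values of 0.0698, 0.077, 0.0828, and 0.0857. The median log2 fold change was -0.22, and that of all genes was -0.06. The libraries did not overlap for Hist1h4a and Hist4h4, 2 of 20, as in 11.8% of all genes. Without WT replicate 4, 4 genes were called lower (6.79% of all genes in that fit) and 1 higher (3.11%). Those lower were Hist1h1c (-1.52), Hist1h3a (-1.21), Hist1h4a (-0.98), and Hist1h1e (-0.79), and the 1 higher was Hist2h2be (1.21). With WT replicate 4 as the sole WT library none was called, and Hist1h1c and Hist2h2be were both at 0.02. That the other genes were not called does not show equal levels.

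In Ly6Clow monocytes, histone transcripts were lower than in Ly6Chi monocytes and no broad rise was seen in Slc29a3-/-. The summed level was 1686 ± 266 RPM (SD, n = 4) in WT, 1340 ± 133 RPM in Slc29a3-/- cells, and 1065 ± 146 RPM in Slc29a3-/- Tlr7-/-. The WT libraries ranged from 1304 to 1917 RPM and overlapped Slc29a3-/-, at 1169 to 1493 RPM, which overlapped Slc29a3-/- Tlr7-/-, at 894 to 1250 RPM. The classes moved both ways. From WT to Slc29a3-/-, mean sums went from 1141 to 702 RPM for H1, 103 to 101 for H2A, and 84.8 to 59.4 for H3. Those of H2B went from 114 to 170 RPM and those of H4 from 243 to 307 RPM. The H1 gene Hist1h1e alone went from a mean of 590 RPM to 219 RPM. Of the 28 genes, 20 passed the filter.

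Against WT, limma called no histone gene higher in Slc29a3-/- (1.90% of all 10317 genes tested) and 1 lower (2.53%). At an unadjusted P under 0.05 and the same fold, 3 were higher and 2 lower, against 6.15% and 7.05% of all genes. The gene called lower was Hist1h1e, which read 791, 659, 695, and 216 RPM in WT and 182, 221, 217, and 256 RPM in Slc29a3-/-. WT replicates 1 to 3 were high and WT replicate 4 lay inside the Slc29a3-/- range, so the groups overlapped. The log2 fold change between them was -1.28 ± 0.33, adjusted P = 0.0389. It was 0.01 with WT replicate 4 as the sole WT library, and the call was also lost on leaving out any 1 of WT replicates 1 to 3 or any 1 Slc29a3-/- library. The 20 genes had a median log2 fold change of -0.03, and all genes 0.00. In 4 genes the libraries did not overlap, against 17.7% of all genes.

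Against WT, Slc29a3-/- Tlr7-/- Ly6Clow monocytes had 5 histone genes called lower and 1 higher, with 6.03% and 2.28% of all genes called in those directions. Hist1h3a read 27.8, 21.8, 28.9, and 11.7 RPM in WT and 10.5, 9.29, 5.13, and 2.96 RPM in the double mutant. The highest double mutant library was just under the lowest WT library, and the log2 fold change was -1.61 ± 0.35, adjusted P = 0.0197. The other genes called lower were Hist1h1e (-1.60 ± 0.33), Hist1h2ak (-1.43 ± 0.31), Hist4h4 (-1.22 ± 0.32), and Hist1h1c (-1.07 ± 0.26), at adjusted P values of 0.0154, 0.0195, 0.0351, and 0.0288. The 1 called higher was Hist2h2be, which read 4.26, 4.67, 4.21, and 12.95 RPM in WT and 13.6, 10.7, 17.5, and 18.6 RPM in the double mutant. WT replicates 1 to 3 were low and WT replicate 4 was in the range of the double mutant. The log2 fold change between them was 1.21 ± 0.30, adjusted P = 0.0296. None of these 6 genes was called with WT replicate 4 as the sole WT library, or without any 1 of WT replicates 1 to 3. The median log2 fold change was -0.19 for the 20 genes and -0.10 for all genes, and 5 of the 20 did not overlap, as in 12.3% of all genes.

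Between Slc29a3-/- and Slc29a3-/- Tlr7-/- Ly6Clow monocytes, 1 gene was called higher (1.22% of all genes) and none lower (0.708%). This was Hist2h4, the gene with the largest difference in Ly6Chi cells, which read 204, 224, 219.98, and 196 RPM in Slc29a3-/- and 144, 74.5, 131, and 133 RPM in the double mutant. The libraries did not overlap, and the log2 fold change was 0.84 ± 0.20, adjusted P = 0.0422. It was not called without any 1 Slc29a3-/- library or without double mutant replicate 3. In 5 genes, Hist1h2ak, Hist1h2bb, Hist1h2bm, Hist2h4, and Hist4h4, the libraries did not overlap, against 11.9% of all genes. No histone gene was lower at an unadjusted P under 0.05 and the same fold, against 301 of all 10317 genes. At that limit 6 histone genes were higher, against 10.8% of all genes. The median log2 fold change was 0.22, with 0.08 for all genes.

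**Figure D4:**
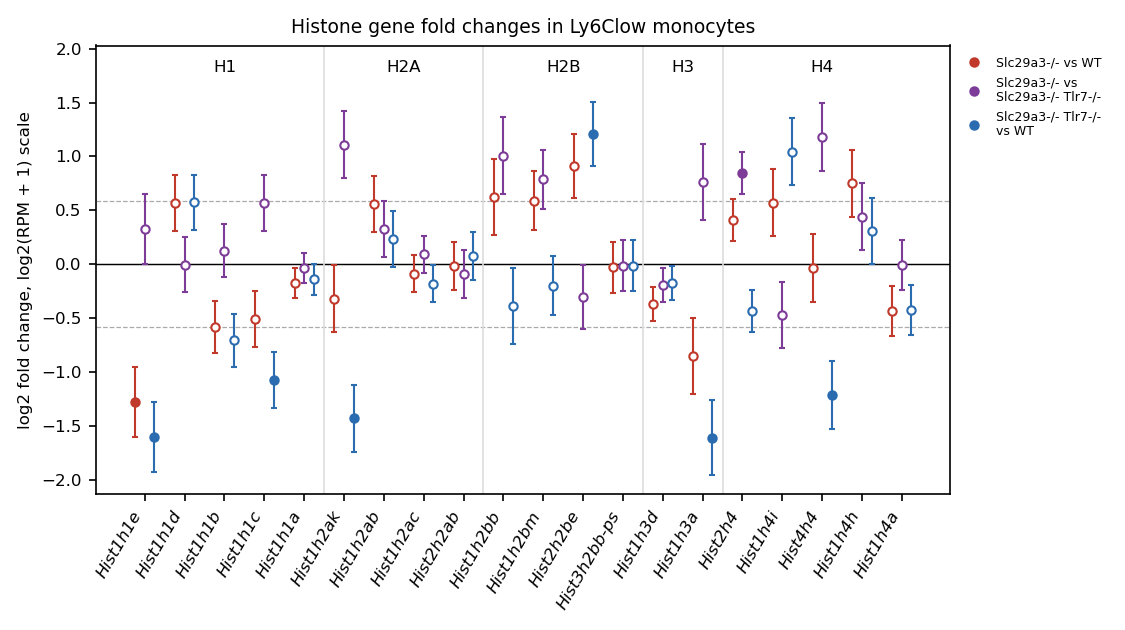
Log2 fold changes, on the log2(RPM + 1) scale, of the histone genes tested in Ly6Clow monocytes for Slc29a3-/- against WT (red), Slc29a3-/- against Slc29a3-/- Tlr7-/- (purple), and Slc29a3-/- Tlr7-/- against WT (blue), with bars of 1 SE, filled points for called genes, open points for others, and dashed lines at a 1.5-fold change. The called genes are 1, 1, and 6 of 20, and all called values lie between -1.61 and 1.21.

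The subsets were compared in a fit of all 24 libraries, in which 22 of the 28 genes passed the filter. Hist1h2bh passed it within Ly6Chi and not within Ly6Clow, and Hist3h2bb-ps the reverse. Each thus entered this fit through the subset where it read higher, so its call is no independent support. These calls, Hist1h2bh higher in WT and Slc29a3-/- and Hist3h2bb-ps lower in Slc29a3-/-, are among those counted below. Histone genes were higher in Ly6Chi than in Ly6Clow monocytes of each genotype. In WT, 15 of 22 were called higher and none lower, with 17.5% and 8.46% of all 11042 genes called in those directions. In Slc29a3-/-, 18 were called higher and 1 lower, against 16.5% and 18.5% of all genes. In Slc29a3-/- Tlr7-/-, 14 were called higher and none lower, against 18.7% and 9.64%. At an unadjusted P under 0.05 and the same fold, no histone gene was lower in WT or in Slc29a3-/- Tlr7-/-, against 1064 and 1180 of all genes. The median log2 difference was 1.12 in WT, 2.92 in Slc29a3-/-, and 1.39 in Slc29a3-/- Tlr7-/-. The mean sum in Ly6Chi was 2.51-fold that in Ly6Clow cells in WT, 10.4-fold in Slc29a3-/-, and 3.31-fold in Slc29a3-/- Tlr7-/-. The 4 libraries of each subset did not overlap in 14 genes in WT, 20 in Slc29a3-/-, and 13 in Slc29a3-/- Tlr7-/-, as in 33.8%, 48.7%, and 24.7% of all genes. With WT replicate 4 as the sole WT library in each subset, 7 genes were called higher in WT, against 3.24% of all genes in that fit.

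The H2B gene Hist1h2bm had the largest difference in each genotype. In Ly6Clow cells it read 4.12, 9.47, 4.42, and 8.66 RPM in WT, 7.95, 8.32, 13.6, and 10.9 RPM in Slc29a3-/- cells, and 5.73, 5.96, 3.95, and 5.99 RPM in Slc29a3-/- Tlr7-/-, all below its Ly6Chi libraries given above. The log2 difference was 3.08 ± 0.24, adjusted P = 6.38e-10, in WT, 4.82 ± 0.24, adjusted P = 7.09e-14, in Slc29a3-/-, and 3.63 ± 0.24, adjusted P = 2.54e-11, in Slc29a3-/- Tlr7-/-. In WT the next were Hist1h2ab (2.92) and Hist1h2bb (2.74), with adjusted P values of 1.11e-08 and 1.18e-06. In Slc29a3-/- the next were Hist1h1b (4.79) and Hist1h2ab (4.61), with adjusted P values of 6.31e-14 and 1.09e-12. In Slc29a3-/- Tlr7-/- they were Hist1h2ak (3.31) and Hist1h1b (2.87), with adjusted P values of 2.2e-08 and 1.03e-09.

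Of the 22 genes, 13 were called higher in Ly6Chi cells of all 3 genotypes, and 4, Hist1h2ae, Hist1h4h, Hist2h2be, and Hist3h2bb-ps, in none. Hist2h2be differed by 0.69 ± 0.29, adjusted P = 0.0727, in WT, 0.43 ± 0.29, adjusted P = 0.244, in Slc29a3-/-, and 0.39 ± 0.29, adjusted P = 0.315, in Slc29a3-/- Tlr7-/-. Hist1h1c was called in Slc29a3-/- (1.51 ± 0.31, adjusted P = 0.000304) and not in WT (0.40 ± 0.31, adjusted P = 0.361) or the double mutant (0.34 ± 0.31, adjusted P = 0.421). The 1 gene lower in Ly6Chi cells was the pseudogene Hist3h2bb-ps in Slc29a3-/-, at 0.079 to 0.4 RPM against 0.55 to 1.51 RPM (-0.66 ± 0.21, adjusted P = 0.0147), within a few reads of the floor, and it was not called without Ly6Clow Slc29a3-/- replicate 4.

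WT libraries of the same number in the 2 subsets deviated together from their group means, with correlations over all genes of 0.26 to 0.62. Replicate 4 of each subset correlated best with replicate 4 of the other, and replicate 1 matched its own number in only 1 direction. Replicates 2 and 3 correlated better with another number in both directions. Pairing by number was therefore not shown for replicates 1 to 3, and the block below assumes it. With genotype and replicate number together as a replicate block, 16 of the 22 genes were called higher in Ly6Chi WT cells, against 17.6% of all genes. Hist1h1e (0.69 ± 0.17, adjusted P = 0.00543) and Hist2h2be (0.69 ± 0.21, adjusted P = 0.0181) were then called, whereas Hist1h2bh (0.62 ± 0.23, adjusted P = 0.0577) was not.

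The difference between the subsets in the effect of genotype was tested directly. The effect of Slc29a3-/- over WT was larger in Ly6Chi than in Ly6Clow cells for 12 of 22 genes and smaller for none, against 4.11% and 4.65% of all genes. No histone gene was smaller at an unadjusted P under 0.05, against 1356 of all genes with the 1.5-fold limit as well. The median log2 difference between the effects was 1.48 for the 22 genes and -0.15 for all genes. The largest were Hist1h1b (2.64 ± 0.34, adjusted P = 3.61e-05), Hist1h1e (2.42 ± 0.42, adjusted P = 0.000759), and Hist1h2ak (1.97 ± 0.47, adjusted P = 0.00843). Hist1h1e also read lower in the Ly6Clow Slc29a3-/- libraries than in 3 of the 4 Ly6Clow WT libraries, as given above. With WT replicate 4 as the sole WT library, 1 gene was called, Hist1h3d (2.04, adjusted P = 0.0267), against 0.157% of all genes in that fit. The effect of Slc29a3-/- over Slc29a3-/- Tlr7-/-, which uses no WT library, was also larger in Ly6Chi cells for 12 genes and smaller for none, against 4.53% and 4.41% of all genes, with a median of 1.24 and -0.20 for all genes. No histone gene was smaller at an unadjusted P under 0.05, against 1607 of all genes with the 1.5-fold limit as well. The largest were Hist1h1d (1.99 ± 0.40, adjusted P = 0.00272), Hist1h1b (1.92 ± 0.34, adjusted P = 0.00103), and Hist1h2ac (1.87 ± 0.27, adjusted P = 0.000329).

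Genes that act on histones were examined in the same Ly6Chi comparisons. Of 7 genes for the transcription and 3′ processing of histone mRNA, 1 was called higher over WT and over Slc29a3-/- Tlr7-/-, against 8.15% and 9.0% of all genes. In a list of 7, a count of 1 is near these shares. The gene was the stem-loop binding protein gene Slbp, at 0.93 ± 0.18 (adjusted P = 0.00258) and 1.08 ± 0.18 (adjusted P = 0.00112). Slbp read 77.3 to 95.2 RPM in WT and 124 to 242 RPM in Slc29a3-/- libraries. Npat, the coactivator of histone gene transcription, had a log2 fold change over WT of 0.45 ± 0.16 (adjusted P = 0.0445), under the fold needed for a call, and Casp8ap2, its partner at histone gene loci, one of 0.42 ± 0.16 (adjusted P = 0.0664). The list had a median log2 fold change over WT of 0.45.

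Of 15 chaperones and assembly factors that carry new histones to replicating DNA, 12 were called higher and 1 lower in Slc29a3-/- than in WT, against 8.15% and 14.3% of all genes, with a median log2 fold change of 1.02. Asf1b, which hands H3 and H4 to assembly factors, rose by 1.57 ± 0.19 (adjusted P = 0.000159). Chaf1a and Chaf1b, subunits of the assembly factor CAF-1, rose by 1.71 ± 0.28 (adjusted P = 0.00092) and 1.02 ± 0.25 (adjusted P = 0.00847). Nasp, which holds a reserve of H3 and H4, rose by 1.05 ± 0.22 (adjusted P = 0.00389), and Hat1, which acetylates new H4, by 1.07 ± 0.17 (adjusted P = 0.000741). The gene called lower was the histone importin Ipo4, with -0.68 ± 0.23 (adjusted P = 0.0397). Over Slc29a3-/- Tlr7-/-, 12 were called higher and 1 lower, again Ipo4, against 9.0% and 8.22% of all genes, with a median of 1.06.

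Of the variant histone genes, which are made outside S phase as well, 7 of 11 were in the table and 6 were tested. Over WT, 3 were called higher, against 8.15% of all genes. They were H2afv (1.19 ± 0.20, adjusted P = 0.000928), H2afx (1.12 ± 0.21, adjusted P = 0.00201), and the centromeric H3 gene Cenpa (1.08 ± 0.19, adjusted P = 0.00115). H1f0, the linker histone of differentiated cells, read 26.4 to 37.9 RPM in Slc29a3-/-, 33.9 to 77.1 RPM in WT, and 41.5 to 77.6 RPM in Slc29a3-/- Tlr7-/- libraries. It was called lower against the double mutant (-0.78 ± 0.25, adjusted P = 0.0364) and not against WT (-0.50 ± 0.25, adjusted P = 0.14). In Ly6Clow cells it was called lower in Slc29a3-/- than in WT (-0.97 ± 0.22, adjusted P = 0.0248).

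Cell cycle genes of the lists in the Seurat package moved in the same Ly6Chi comparisons. Of 40 S phase genes tested, 30 were called higher and none lower over WT, against 8.15% and 14.3% of all genes, with a median log2 fold change of 1.14, and 33 were called higher over Slc29a3-/- Tlr7-/-, against 9.0% of all genes, with a median of 1.49. Of 49 G2M phase genes, 38 were called higher over WT (median 1.20) and 45 over the double mutant (median 1.66). The proliferation marker Mki67 rose by 1.26 ± 0.24 (adjusted P = 0.00184) over WT and by 2.01 ± 0.24 (adjusted P = 0.000125) over Slc29a3-/- Tlr7-/-. In the comparison of the double mutant with WT none of the genes of the 5 lists was called, against 0.312% higher and 1.11% lower of all genes. The lists share genes, as Nasp is in both the chaperone and the S phase list, so they are not independent of each other. The mean sum of the S phase genes in Slc29a3-/- was 2.28-fold that in WT, and that of the histone amplicons was 3.29-fold. The ratio of the histone sum to the S phase sum was 4.04 to 4.70 in Slc29a3-/-, 2.84 to 3.46 in WT, and 2.66 to 3.55 in Slc29a3-/- Tlr7-/- Ly6Chi libraries, so that Slc29a3-/- did not overlap the others. In Ly6Clow libraries it was 1.62 to 2.04 in Slc29a3-/-, 1.59 to 2.97 in WT, and 1.27 to 1.80 in Slc29a3-/- Tlr7-/-.

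**Figure D5:**
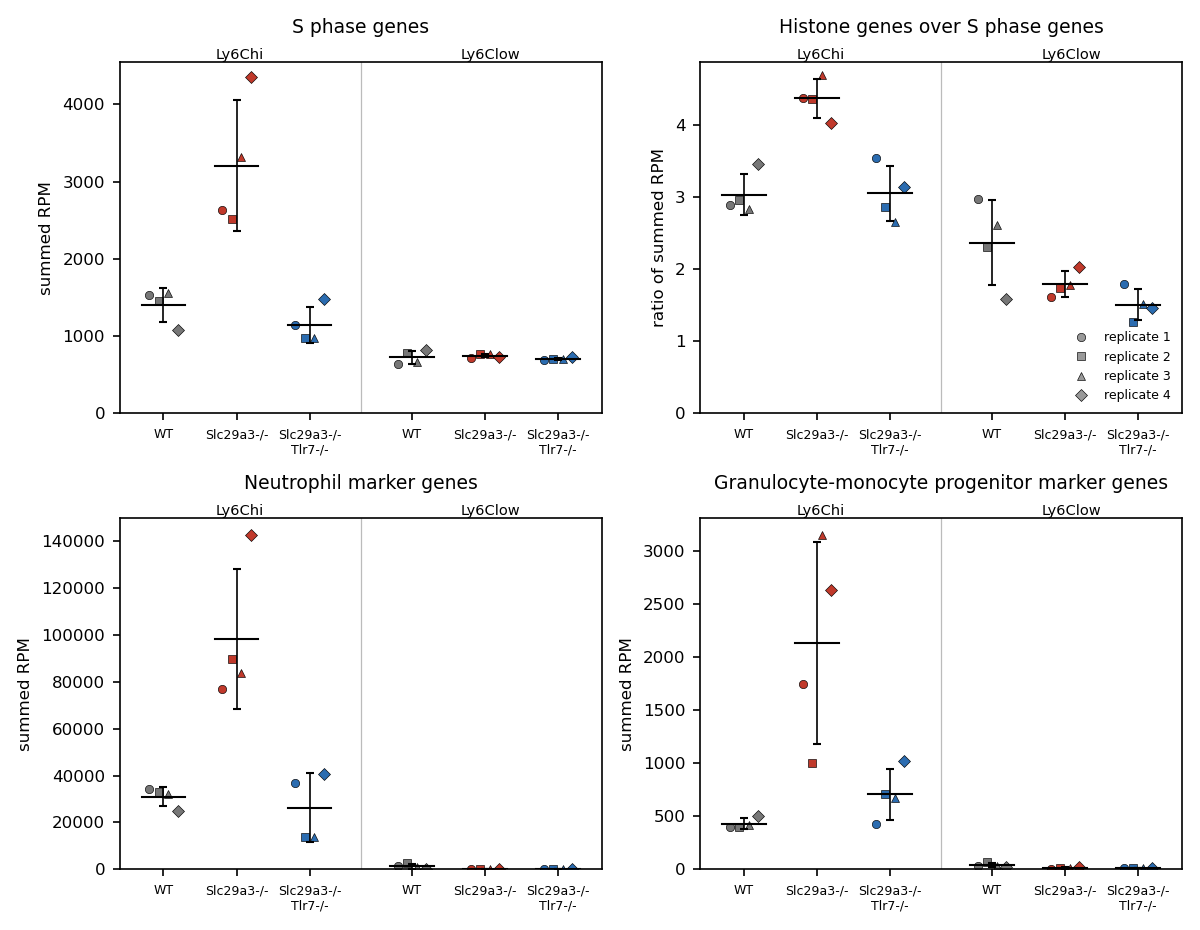
Summed RPM of S phase genes, the ratio of the histone sum to the S phase sum, and the summed RPM of neutrophil and of progenitor marker genes in each library, by subset and genotype, with a point for each library and bars of mean ± SD of 4 libraries. In Ly6Chi cells all 4 Slc29a3-/- libraries lie above all WT libraries in each panel.

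Markers of granulocytes and their progenitors moved with genotype in the Ly6Chi libraries, although Ly6G+ cells had been removed. The 13 neutrophil genes, of which S100a8 and S100a9 are also made by Ly6Chi monocytes, summed to 77066 to 142543 RPM in Slc29a3-/-, 25011 to 34245 RPM in WT, and 13616 to 40820 RPM in Slc29a3-/- Tlr7-/-, and 8 of 13 were called higher and 2 lower over WT, against 8.15% and 14.3% of all genes. All 13 were above 0 in each Ly6Chi library, and Ly6g read 59.2 to 139 RPM in Slc29a3-/- and 17.9 to 33.5 RPM in WT. The 10 genes of granulocyte-monocyte progenitors summed to 1005 to 3147 RPM in Slc29a3-/-, 395 to 505 RPM in WT, and 430 to 1015 RPM in Slc29a3-/- Tlr7-/-, and 8 of 10 were called higher over WT.

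Markers of other cells were lower in the same Ly6Chi comparison. Over WT, all tested markers of T cells (6), NK cells (5), plasmacytoid (4) and conventional dendritic cells (5), and B cells (2) were called lower, with medians of -3.02 for T cells, -3.02 for NK cells, -2.21 and -1.67 for the dendritic cells, and -1.47 for B cells. Of 5 erythroid genes tested, 3 were called lower. In this comparison 14.3% of all genes were called lower. The NK genes summed to 19.3 to 37.1 RPM in Slc29a3-/-, 102 to 425 RPM in WT, and 6.26 to 639.6 RPM in Slc29a3-/- Tlr7-/-, and the T cell genes to 8.5 to 18.8 RPM, 51.01 to 189.9 RPM, and 18.9 to 108 RPM. The sums of B cell, plasmacytoid, and conventional dendritic cell genes were each at most 103 RPM in WT. The part of these cells, and of granulocytes and progenitors, in the histone difference was not tested.

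In Ly6Clow libraries markers of other cells also differed by genotype. The 13 neutrophil genes summed to 75.3 to 2570 RPM in WT, lowest in WT replicate 4, 29.1 to 202 RPM in Slc29a3-/-, and 9.69 to 57.8 RPM in Slc29a3-/- Tlr7-/-, and Ly6g was at 0 in 6 of 12 libraries. Of the 10 tested, 4 were called lower in Slc29a3-/- than in WT (median -3.03) and all 10 in Slc29a3-/- Tlr7-/- (median -3.97). The shares of all genes were 2.53% and 6.03%. In Slc29a3-/- Tlr7-/- against WT, where 5 histone genes were called lower, so were 4 of 6 progenitor, 5 of 5 NK, 3 of 5 T cell, and 2 of 5 Ly6Chi monocyte markers, against 6.03% of all genes. The progenitor genes summed to at most 68.419 RPM and the NK genes to at most 103 RPM. The 9 measured erythroid genes summed to 128 to 171 RPM in Slc29a3-/-, 19.9 to 39.1 RPM in WT, and 7.995 to 38.4 RPM in Slc29a3-/- Tlr7-/-. The part of these cells in the Ly6Clow differences was not tested.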

How the data were processed

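RNA of sorted Ly6Chi and Ly6Clow spleen monocytes was measured by the authors with an amplicon panel of the mouse transcriptome (Ion AmpliSeq) in 24 libraries, and reads were processed with the AmpliSeqRNA plug-in of the Torrent Suite. The values that the authors deposited are reads per 1000000 reads (RPM) for 23930 amplicons, 1 a gene, with mm10 named as the build. The paper's methods also name Cutadapt, STAR, HTSeq, and DESeq2, and which step wrote the table is not given in the sources used here. A value of 0.0001 stood for 0 reads and was set to 0, and 27 gene names turned into dates by spreadsheet software were repaired, none of them a histone gene. Depth was inferred from the step between low values. With this step, 100% of values under 5 RPM were whole reads within 0.1 of a read. No pair of libraries of a group agreed within sampling noise.

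Because the table holds RPM and not counts, limma 3.58.1 (R 4.3.3; lmFit and eBayes with trend) was fitted to log2(RPM + 1) over all genes that reached 1 RPM in 4 or more of the libraries in the fit. Genotypes were compared within the 12 libraries of a subset, and subsets and their interaction in all 24. Log2 fold changes are on this scale, which understates changes of low genes, and P values were adjusted over all genes tested by the method of Benjamini and Hochberg. The count tests of edgeR and DESeq2 were not run. The script was tested on simulated data. Replicate numbers were taken to pair libraries where all 4 same-numbered correlations of deviations from the group means were over 0.1. This held only for the WT subsets (0.26 to 0.62) among the 9 pairs of groups checked. In those subsets only replicate 4 was the best match of its own number in both directions. Alternatives were an unadjusted P, TMM and RLE scaling, other filters, a pseudocount of 0.1, other sets of libraries, a replicate block, and leaving out each library.

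The members and lists were chosen with earlier results of these data known. Named genes were the 3 with the highest mean in each class, those with the largest and smallest changes, those called against the main direction, the testis members, Hist1h1c, Hist2h2be, Hist2h4, and Hist4h4. Sequences were read from RefSeq (GRCm38.p6) and GENCODE vM21. Python 3.11.15, pandas 2.3.3, and matplotlib 3.10.9 were used for the rest.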

Additional observations from a re-analysis of the deposited data

Results flagged for a closer look

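A library was singled out where it lay farther from the other 3 of its group than Dixon's 95% limit allows. This was so in 10 of 108 group checks (9.3%), and 8 of the 10 were WT replicate 4. Independent checks would give about 1 in 20 by chance. These checks use the same libraries, and the sum holds the genes, so that figure does not measure chance here. In Ly6Chi WT replicate 4, Hist1h1e (529 RPM, others 966 to 1025), Hist1h1c (164 RPM), and the sum of the 28 genes (3745 RPM) were low. Hist1h1d (600.4 RPM), Hist2h2be (19.5 RPM), and Hist1h4i (88.8 RPM) were high in the same library. In Ly6Clow WT replicate 4, Hist1h1c (156 RPM) was low and Hist2h2be (12.95 RPM) was high. The others were Hist1h2bm in Ly6Clow Slc29a3-/- Tlr7-/- replicate 3 (3.95 RPM) and Hist4h4 in Ly6Chi Slc29a3-/- Tlr7-/- replicate 2 (26.2 RPM), both low. WT replicate 4 had fewer reads than WT replicates 1 to 3, and the part of depth in these values was not tested.

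The effect of genotype differed between the subsets by the interaction test of limma for 12 genes in each of 2 contrasts, and all were larger in Ly6Chi cells. For Slc29a3-/- against WT the log2 differences were 1.64 for Hist1h1a, 2.64 for Hist1h1b, 1.47 for Hist1h1d, 2.42 for Hist1h1e, 1.69 for Hist1h2ab, 1.499 for Hist1h2ac, 1.97 for Hist1h2ak, 1.74 for Hist1h2bm, 1.78 for Hist1h3a, 1.63 for Hist1h3d, 1.76 for Hist2h2ab, and 1.96 for Hist2h4. For Slc29a3-/- against Slc29a3-/- Tlr7-/- they were 1.57 for Hist1h1a, 1.92 for Hist1h1b, 1.99 for Hist1h1d, 1.37 for Hist1h1e, 1.80 for Hist1h2ab, 1.87 for Hist1h2ac, 1.19 for Hist1h2bm, 1.75 for Hist1h3d, 1.06 for Hist1h4a, 1.65 for Hist1h4i, 1.82 for Hist2h2ab, and 1.66 for Hist2h4. Both contrasts use the same Slc29a3-/- libraries.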

How the results depend on the processing

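Counts of called genes in Ly6Chi Slc29a3-/- stayed within 1.5 times under all alternatives except WT replicate 4 as the sole WT library, which gave 9 higher over WT, 7 in the WT subset comparison, and 1 in the interaction with WT. The Ly6Clow calls were less stable, and the cause was not tested. For Slc29a3-/- against WT, an unadjusted P gave 3 higher and 2 lower, and 0 were lower under TMM, RLE, no filter, the replicate block, or WT replicate 4 alone, where Hist1h1e turned to 0.01156. For Slc29a3-/- Tlr7-/- against WT, 2 were higher with an unadjusted P, against 627 of all 10317 genes. With TMM, RLE, all 24 libraries, or the replicate block, 2 were higher as well. With no filter or only the 2 groups compared, 0 were higher and 0 lower. For Slc29a3-/- against Slc29a3-/- Tlr7-/-, an unadjusted P gave 6 higher and all 24 libraries gave 2, and 0 were higher with RLE, no filter, a mean of at least 10 RPM, only the 2 groups, or the replicate block. In Ly6Chi Slc29a3-/- Tlr7-/- against WT, an unadjusted P gave 2 higher and 4 lower, and all 24 libraries gave 2 lower. The pseudogene Hist3h2bb-ps was filtered out at a mean of 10 RPM, leaving 0 lower between the subsets of Slc29a3-/-, and a pseudocount of 0.1 gave 1 lower in those of Slc29a3-/- Tlr7-/-.

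Leaving out each library in turn, the Ly6Chi counts ranged from 14 to 15 higher and 0 to 0 lower (Slc29a3-/- against WT), 18 to 18 higher (against Slc29a3-/- Tlr7-/-), and 0 to 1 higher and 0 to 4 lower (Slc29a3-/- Tlr7-/- against WT). In the last, 1 higher and 4 lower were found without WT replicate 4, and 1 lower without Slc29a3-/- Tlr7-/- replicate 1. The Ly6Clow counts ranged from 0 to 2 higher and 0 to 3 lower (Slc29a3-/- against WT), with 2 higher and 3 lower without WT replicate 4. They ranged from 0 to 2 higher and 0 to 6 lower (Slc29a3-/- Tlr7-/- against WT), with 0 higher and 1 lower without Slc29a3-/- Tlr7-/- replicate 3 and 2 higher without its replicate 2 or WT replicate 4. They ranged from 0 to 3 higher (Slc29a3-/- against Slc29a3-/- Tlr7-/-), with 3 without Slc29a3-/- Tlr7-/- replicate 1, 2 without replicate 2, and 0 without replicate 3. Between subsets they ranged from 12 to 16 higher in WT, 18 to 18 higher and 0 to 1 lower in Slc29a3-/-, and 14 to 14 higher and 0 to 1 lower in Slc29a3-/- Tlr7-/-, with 1 lower without Ly6Chi replicate 1 or Ly6Clow replicate 2. The interactions ranged from 10 to 13 higher (WT) and 9 to 16 higher (Slc29a3-/- Tlr7-/-). Shares of all genes were not taken for most of these settings, so the counts show only how stable the calls were.

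Between genotypes, shared replicate numbers were not shown to pair libraries (correlations of deviations -0.19 to 0.15), and the replicate block changed no Ly6Chi count by over 1.5 times. Between subsets the correlations were 0.26 to 0.62 in WT, where the blocked values are given with the result, -0.08 to 0.26 in Slc29a3-/-, and -0.46 to 0.34 in Slc29a3-/- Tlr7-/-. In WT as well, pairing by number was not shown for replicates 1 to 3. The median of all genes moved from -0.14 to 0.02 under TMM for Ly6Chi Slc29a3-/- against WT, and that of the 20 histone genes from 1.44 to 1.61. The tests of edgeR and DESeq2 were planned for counts and were not run. Levels under about 5 RPM rest on few reads, and low genes could not be tested.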
